A study of Triticum turgidum subsp. durum with 12 samples.

Results

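The comparison described here sets leaves of phyB-null plants directly against leaves of phyC-null plants, both grown in short days. It takes the 4 phyB-null and the 4 phyC-null RNA-seq libraries, 8 of the 12 in the series, chosen by genotype label alone, and the 4 wild-type (WT) libraries are given beside them for reference only. All plants were Kronos, a tetraploid durum wheat (A and B genomes) that carries the photoperiod-insensitive allele Ppd-A1a and a spring Vrn-A1 allele. Each mutant line carried induced null alleles at both homeologs of its gene, on the A genome and the B genome. Both lines had been backcrossed to Kronos, and the WT plants were the same parent. Each mutant was represented by a single mutant line, so that other induced changes carried by a line cannot be told apart from loss of the phytochrome. Plants received 8 h of light and 16 h of dark at 20 °C by day and 18 °C at night, and the last fully expanded leaf was taken at 8 weeks of age, 4 h after dawn. Another label of the same samples calls it the third leaf. At that age the apices of both mutants were vegetative, whereas WT had begun to form a spike, so a difference between a mutant and WT includes a difference in stage that the mutant-to-mutant comparison does not have. Of the 72120 annotated features with counts, the 48846 high confidence gene models are the genes described below.

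Phytochromes are red and far-red light receptors that switch between an inactive and an active form. Active phyB moves to the nucleus, where it binds phytochrome interacting factors (PIFs), basic helix-loop-helix (bHLH) transcription factors that promote elongation, and triggers their degradation. In Arabidopsis phyC works largely in heterodimers with phyB, and in wheat both are known to promote flowering in long days. A transcript that differs between the mutants is a place where leaves of the phyB-null line and the phyC-null line are not alike. Whether loss of a phytochrome or another induced change of a line lies behind such a difference was not tested.

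Library totals ranged from 37365465 to 58944135 reads assigned to features. Within each mutant 1 library stood apart, with the largest share of reads in its 100 most abundant genes: phyB-null replicate 2 (27.3%) and phyC-null replicate 3 (31.4%), against 18.5% to 23.5% in the other 6 mutant libraries. The leaf markers, RbcS genes for the small subunit of Rubisco and Lhc genes for chlorophyll-binding proteins, summed to 10128 to 18336 TPM (abundance scaled to transcript length and library size) in phyB-null, 7097 to 27603 TPM in phyC-null and 8858 to 16332 TPM in WT, and none of the 7 differed between the mutants by the test below. The highest of these sums belonged to phyC-null replicate 3. The transcripts of the null alleles give no check of the labels, because a null allele need not lower its own transcript and no identifier could be tied to either gene. A gene annotated as a phytochrome on chromosome 5A (TraesCS5A01G391300) stood at 8.05 to 9.62 TPM in phyB-null against 7.70 to 12.7 TPM in phyC-null.

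Between the mutants, 2004 of the 48846 high confidence genes (4.10%) passed an adjusted P of 0.01, 798 higher in phyB-null (1.63%) and 1206 lower (2.47%). Every count below is to be read against these shares. The test was edgeR's quasi-likelihood test on counts of the 8 mutant libraries, with Benjamini-Hochberg adjustment over all 72120 features, and a fold change is phyB-null over phyC-null throughout. Genes lower in phyB-null had the larger median difference, 1.64 on the absolute log2 scale against 1.21 for genes higher in phyB-null, and 1000 of 1206 differed at least 2-fold, against 497 of 798. Differences of at least 16-fold went the other way as a share, with 105 of the 1206 lower and 101 of the 798 higher genes. In 2003 of the 2004 the libraries of the mutants did not overlap in CPM (counts scaled to library size), whereas 18.5% of all high confidence genes did not overlap, 8.77% higher and 9.77% lower in phyB-null. The number of calls fell to 818 (312 higher and 506 lower) without phyB-null replicate 3 and rose to 2901 (1387 and 1514) without phyC-null replicate 3, and it lay between 1097 and 1349 when any other mutant library was left out. Without both libraries that stood apart it was 2522, including 1695 of the 2004.

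**Figure D1:**
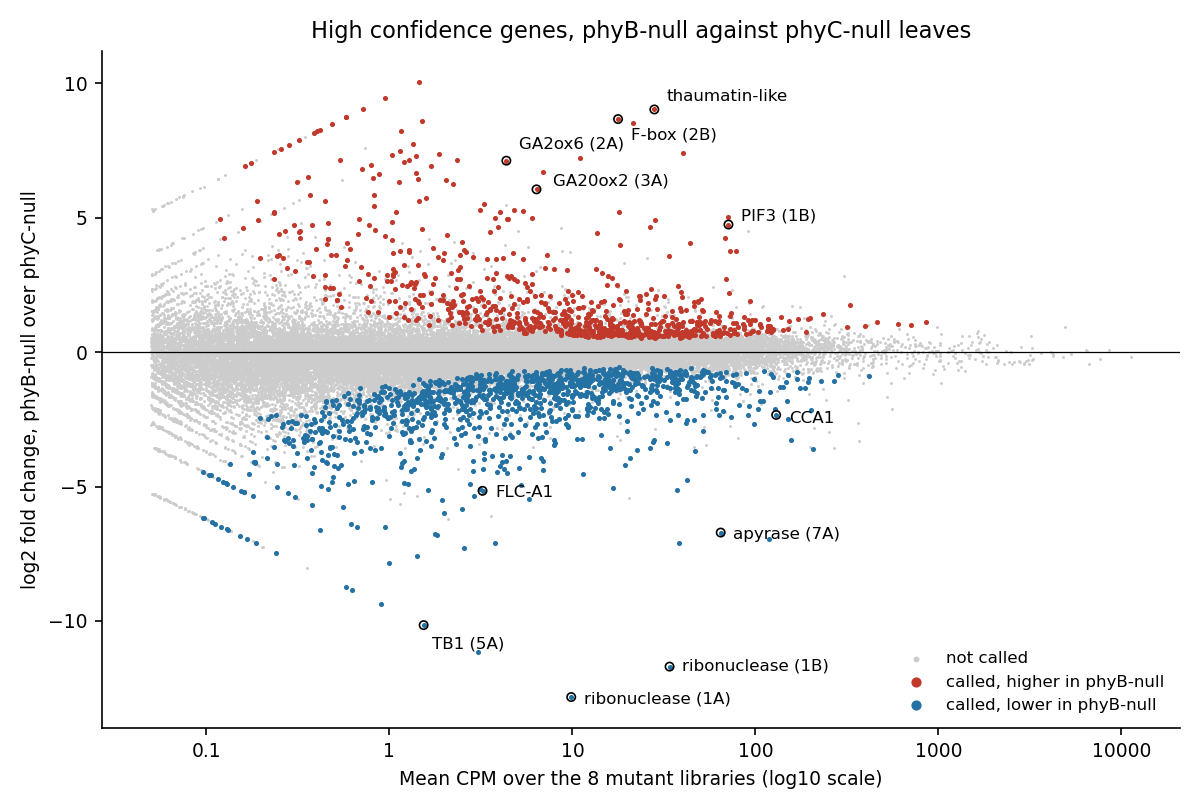
Log2 fold change, phyB-null over phyC-null, against mean CPM (log10 axis) for high confidence genes with a mean of at least 0.05 CPM over the 8 mutant libraries; each point is a gene, and red and blue points are the genes called higher and lower in phyB-null. Differences of at least 16-fold were called in both directions, 101 higher and 105 lower in phyB-null, and the gibberellin and PIF-related genes marked by circles lie far above the main cloud.

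Set beside WT, most of what separated the mutants lay on the phyB-null side. Of the 2004 genes, WT was nearer to phyC-null in 1704 (85.0%) and nearer to phyB-null in 300 (15.0%), by mean log2 CPM. With a limit of 2-fold from WT, phyB-null alone was away from WT in 1055 genes (52.6%), 349 of them higher and 706 lower than in phyC-null. The reverse, phyC-null alone away from WT, held for 162 genes (8.08%). Both mutants were away from WT on the same side in 121 genes, and phyB-null lay further out in 117 of these. In 92 genes the mutants lay on opposite sides of WT, each at least 2-fold away, and in 574 neither was 2-fold from it. Without that limit, WT lay between the means of the mutants in 1091 of the 2004 genes (54.4%), 372 of them higher and 719 lower in phyB-null. These positions are a description without a test, since the WT libraries did not enter the fit.

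**Figure D2:**
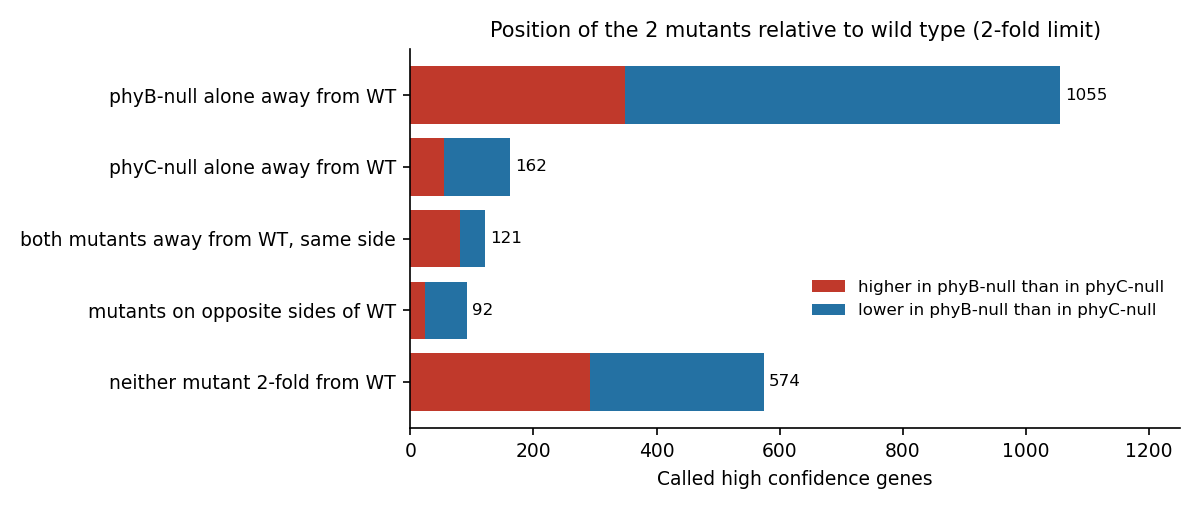
Number of called high confidence genes in each of 5 positions of the mutant means relative to the WT mean, with a limit of 2-fold; colours give the direction between the mutants. The bar for phyB-null alone away from WT (1055 genes) is the longest, and that for opposite sides of WT (92 genes) the shortest.

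A 5A and a 5B gene annotated as TEOSINTE BRANCHED1 (TB1) were detected in phyC-null and not in phyB-null. TB1 of maize is a TCP transcription factor that represses the outgrowth of axillary buds. The name is an annotation alone, and whether these wheat genes act on buds was not tested. The 5A copy (TraesCS5A01G001900) had 0, 0, 0 and 0 counts in the phyB-null libraries and 139, 87, 148 and 255 in the phyC-null libraries, and the 5B copy (TraesCS5B01G002300) had 0, 0, 0 and 0 and 111, 54, 69 and 133. No phyB-null library held a read of either copy and every phyC-null library did. With 3 counts over the group as the floor, TB1 was at least 177-fold lower in phyB-null for the 5A copy (adjusted P = 1.4e-04) and at least 103-fold lower for the 5B copy (adjusted P = 2.0e-04). WT replicate 1 also had no reads of either copy, whereas the other 3 WT libraries had 147 to 151 of the 5A copy and 43 to 69 of the 5B copy. Of the 6 tillering genes listed, these 2 fell and none rose. GRASSY TILLERS1, a homeobox gene that restrains buds in maize, stood at 1.44 to 2.95 TPM in phyB-null against 1.08 to 5.69 TPM in phyC-null, which overlap.

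**Figure D3:**
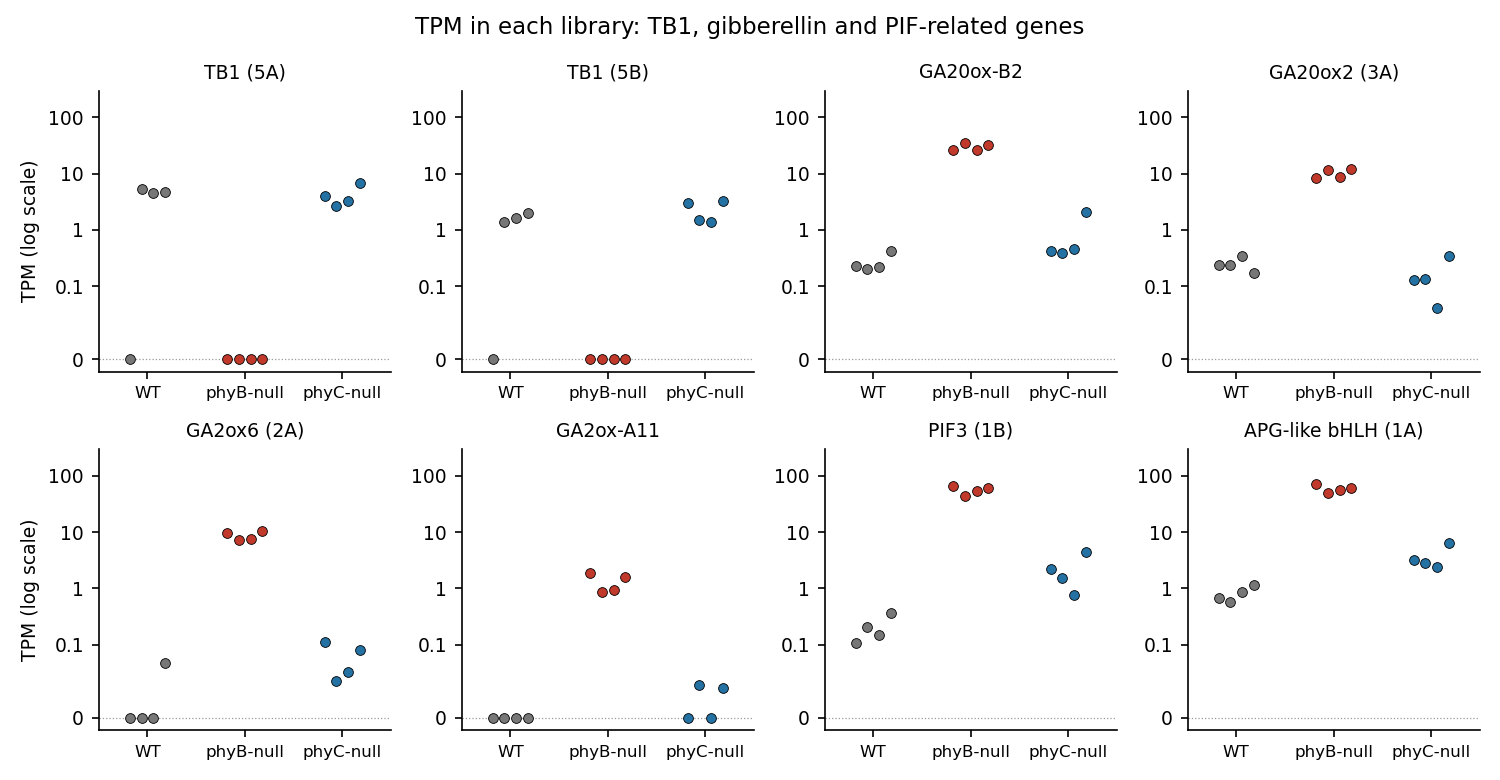
TPM (log axis, with 0 drawn on the dotted line) in each of the 12 libraries for TB1, gibberellin and PIF-related genes; each point is a library. TB1 is at 0 in the 4 phyB-null libraries and in WT replicate 1, and for the other 6 genes the phyB-null libraries lie above all phyC-null and WT libraries.

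Gibberellin (GA) metabolism genes differed between the mutants at both ends of the pathway, biosynthesis and inactivation. Those that passed the threshold were all higher in phyB-null. GA20-oxidases carry out late steps towards active GA. GA20ox-B2 (TraesCS3B01G439900) was at 25.8, 35.2, 26.2 and 31.6 TPM in phyB-null against 0.414, 0.392, 0.450 and 2.11 TPM in phyC-null (log2 fold change 5.22 ± 0.49, adjusted P = 1.4e-04). GA20ox2 on 3A (TraesCS3A01G406200) was at 8.21, 11.6, 8.65 and 12.04 TPM in phyB-null against 0.125, 0.131, 0.0402 and 0.349 TPM in phyC-null (log2 fold change 6.06 ± 0.40, adjusted P = 1.4e-05). WT was at 0.266 ± 0.101 and 0.246 ± 0.0690 TPM (mean ± SD, n = 4), overlapping phyC-null for both genes, although 3 of the 4 WT libraries were below every phyC-null library for GA20ox-B2. Of the 5 biosynthesis genes these 2 passed the threshold as higher in phyB-null and none as lower. By estimate alone only 3 of the 5 were higher in phyB-null, and the lowest log2 fold change was -2.13. GA20ox-B4 had 1.27 to 3.87 TPM against 0.0144 to 0.570 TPM without passing the threshold (adjusted P = 0.012), and GA20ox1 overlapped between the mutants (17.0 to 21.5 and 11.7 to 54.4 TPM). In phyC-null replicate 4 GA20ox genes were high, with 2.11 TPM of GA20ox-B2 and 38.0 TPM of GA20ox-A4 against 2.72 to 6.47 TPM in the other phyC-null libraries; without it the log2 fold change of GA20ox-B2 was 6.09 and that of GA20ox2 on 3A was 6.71.

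GA2-oxidases, which inactivate GA, rose too, with 5 of 7 higher in phyB-null and none lower. The median log2 fold change over the 7 was 5.74, against -0.04 over all high confidence genes. The list was written with earlier results of these data known, so this median is a description and not independent evidence. GA2ox6 on 2A (TraesCS2A01G379000) was at 9.67, 7.16, 7.40 and 10.3 TPM in phyB-null against 0.109, 0.0227, 0.0326 and 0.0809 TPM in phyC-null (log2 fold change 7.12 ± 0.29, adjusted P = 5.0e-07). Its 2B counterpart (TraesCS2B01G396000) showed the same pattern at a lower level, 2.64, 2.05, 1.93 and 2.68 against 0.0492, 0.0171, 0.0735 and 0.0152 TPM (log2 fold change 5.74 ± 0.42, adjusted P = 2.9e-05). The GA2ox11 pair was close to silent outside phyB-null. GA2ox-A11 (TraesCS4A01G033200) had 85, 46, 50 and 89 counts in phyB-null and 0, 1, 0 and 1 in phyC-null, a normalised ratio of 160.0 (95% exact counting interval 43.9 to 1328) (adjusted P = 4.5e-05). GA2ox-B11 (TraesCS4B01G272100) had 87, 47, 52 and 49 against 0, 0, 0 and 2, a ratio of 139 (95% exact counting interval 38.1 to 1157) (adjusted P = 1.4e-04). Such intervals cover counting error only. GA2ox-B4 (TraesCS1B01G347600) had a smaller difference and was also present in phyC-null, at 1.51, 0.800, 1.79 and 1.14 TPM against 10.1, 8.49, 6.82 and 10.1 TPM in phyB-null (log2 fold change 2.70 ± 0.31, adjusted P = 5.4e-04); WT was at 0.203 ± 0.109 TPM. The log2 fold change was 8.98 for GA2ox-B11 without phyC-null replicate 4 and 6.48 for GA2ox6 on 2B without phyC-null replicate 3. The 2 members that did not pass had estimates of opposite sign: GA2ox-A4 had 5.47 to 7.10 TPM in phyB-null against 1.60 to 3.36 TPM in phyC-null (adjusted P = 0.021), and GA2ox7 on 3A had 0 to 0.115 and 0.255 to 0.451 TPM (adjusted P = 0.036).

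Among phytochrome signalling genes 4 of 11 rose and 2 fell in phyB-null, and the PIF-related bHLH genes went in opposite directions. The gene annotated as PIF3 on 1B (TraesCS1B01G100400) was at 65.8, 44.5, 53.6 and 60.2 TPM in phyB-null against 2.22, 1.52, 0.771 and 4.43 TPM in phyC-null (log2 fold change 4.75 ± 0.38, adjusted P = 5.0e-05). A bHLH gene on 1A named after rice APG (TraesCS1A01G083000) was at 70.5, 49.0, 56.7 and 60.2 against 3.13, 2.82, 2.39 and 6.34 TPM (log2 fold change 4.06 ± 0.25, adjusted P = 8.7e-06). WT lay below both mutants for both genes, at 0.204 ± 0.109 and 0.813 ± 0.245 TPM, so that phyC-null took an intermediate place, far below phyB-null. In the other direction, PIF1-like 5A-1 (TraesCS5A01G376500) was at 20.2, 16.8, 18.3 and 23.0 TPM in phyB-null against 75.6, 54.8, 28.1 and 60.1 TPM in phyC-null (log2 fold change -1.40 ± 0.17, adjusted P = 6.6e-04), with WT at 71.1 ± 10.7 TPM. PIF4-like 5A (TraesCS5A01G049600) was at 1.11, 1.62, 1.95 and 3.17 against 11.4, 6.07, 3.64 and 7.28 TPM (log2 fold change -1.76 ± 0.32, adjusted P = 0.0071). The PIF1-like genes on 5B, PIF1-like 5B-1 and 5B-2, also had negative estimates, without passing the threshold (adjusted P = 0.014 and 0.040).

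Further light signalling genes were higher in phyB-null. ATHB2-B (TraesCS2B01G434900), a homeodomain-leucine zipper gene whose Arabidopsis relative is induced by shade, stood at 13.1, 15.7, 16.4 and 20.9 TPM in phyB-null, 2.79, 1.80, 0.800 and 4.25 TPM for phyC-null and 1.13 ± 0.341 TPM in WT (log2 fold change 2.89 ± 0.33, adjusted P = 5.3e-04). PHYA-A (TraesCS4A01G262900), the receptor of far-red light, was at 4.33, 5.89, 5.65 and 5.34 against 2.44, 1.89, 1.48 and 3.36 TPM (log2 fold change 1.29 ± 0.20, adjusted P = 0.0031), and phyC-null did not stand apart from WT at 2.05 to 2.44 TPM. COP1, an E3 ubiquitin ligase subunit that represses light responses, had 34.5 to 37.8 TPM in phyB-null against 14.8 to 21.1 TPM in phyC-null without passing the threshold (adjusted P = 0.019). The PHYA-A call was lost without phyB-null replicate 3 or 4 or phyC-null replicate 1 or 2 (adjusted P up to 0.015), and that of PIF4-like 5A without any library other than phyB-null replicate 4 or phyC-null replicate 3 (adjusted P up to 0.030).

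Many of the listed genes, above as well as below, were picked in the study from these same libraries. A list's count or median is therefore not independent evidence of its direction. Of 15 photoperiod and clock genes 6 differed between the mutants, 2 higher and 4 lower in phyB-null. CCA1 (TraesCS7B01G188000) and LHY (TraesCS6B01G288500), MYB-related genes of the morning loop of the clock, were lower in phyB-null. These are the study's names for the pair, whereas its descriptions call the former LHY and the latter only a MYB-related protein. CCA1 was at 5.14, 2.60, 3.41 and 4.93 TPM in phyB-null against 16.7, 21.2, 19.6 and 22.1 TPM in phyC-null (log2 fold change -2.34 ± 0.22, adjusted P = 1.4e-04), and WT, at 34.0 ± 2.95 TPM, was above both. LHY was scarce in all groups, with 0.220, 0.166, 0.311 and 0.267 TPM in phyB-null against 0.674, 0.941, 0.676 and 1.08 TPM in phyC-null (log2 fold change -1.77 ± 0.29, adjusted P = 0.0043). CDF genes encode Dof-type repressors of flowering in Arabidopsis. CDF1c-A (TraesCS2A01G100800) was at 9.99, 5.42, 6.19 and 8.80 against 16.9, 20.0, 16.1 and 17.2 TPM (log2 fold change -1.22 ± 0.18, adjusted P = 0.0019). The B copy named CDF1d-B or CDF1e-B (TraesCS4B01G286400) was at 10.9, 10.9, 10.1 and 14.6 against 21.9, 19.5, 15.5 and 23.8 TPM (log2 fold change -0.76 ± 0.14, adjusted P = 0.0066). As with CCA1, the order of both CDF genes was phyB-null below phyC-null below WT, and no library of these 3 groups overlapped another group.

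GIGANTEA, an evening clock gene that acts in photoperiodic flowering, went the other way. GIGANTEA-A (TraesCS3A01G116300) was at 26.6, 29.0, 29.1 and 29.0 TPM in phyB-null against 18.7, 17.1, 11.7 and 17.9 TPM in phyC-null (log2 fold change 0.85 ± 0.13, adjusted P = 0.0032). GIGANTEA-B (TraesCS3B01G135400) was at 17.9, 19.6, 19.4 and 19.7 against 12.9, 11.7, 7.91 and 11.8 TPM (log2 fold change 0.84 ± 0.14, adjusted P = 0.0041). WT lay between the mutants for both copies, at 21.95 to 24.7 and 15.7 to 17.7 TPM. Both differences were smaller than 2-fold, and 5 of the 8 leave-out fits lost the call of GIGANTEA-A and 6 that of GIGANTEA-B (adjusted P up to 0.018 and 0.021, both without phyB-null replicate 3). The calls of LHY and of CDF1d-B or CDF1e-B were also lost in 6 of the 8 (adjusted P up to 0.016 and 0.033), and that of CDF1c-A without phyB-null replicate 3 (adjusted P = 0.011). PPD-A1, a pseudo-response regulator and the main photoperiod gene of wheat, had 2.59, 2.24, 1.96 and 3.74 TPM in phyB-null against 4.87, 4.02, 3.28 and 4.26 TPM in phyC-null, which overlapped and did not pass the threshold (log2 fold change -0.62 ± 0.17, adjusted P = 0.048). PPD-B1 was at 0.232 to 0.581 and 0.505 to 1.49 TPM in the mutants and 9.54 to 11.5 TPM in WT.

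**Figure D4:**
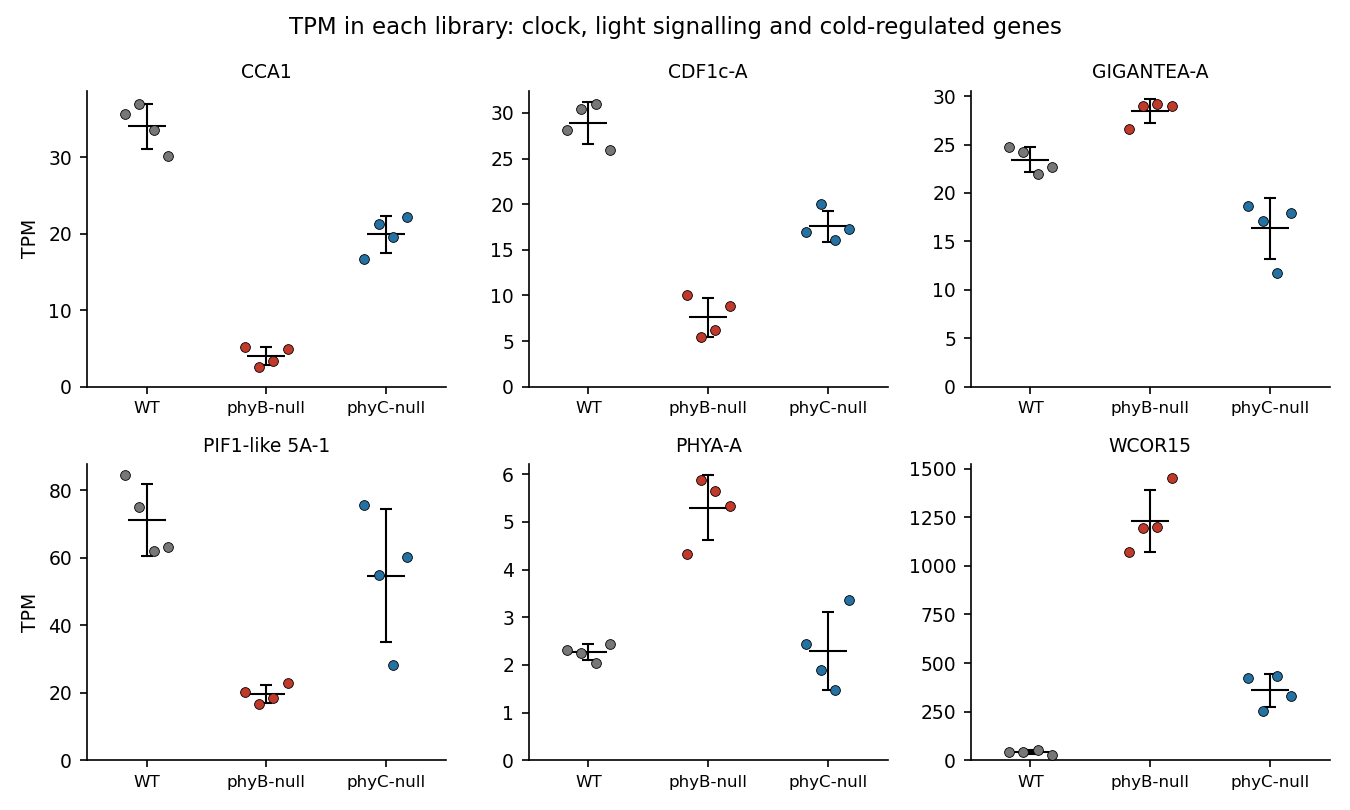
TPM (linear axes from 0) in each of the 12 libraries for clock, light signalling and cold-regulated genes; points are libraries, and the bar and whiskers are the mean and SD of 4. CCA1 and CDF1c-A run from phyB-null up to phyC-null and WT without overlap, GIGANTEA-A runs the other way with WT between the mutants, and WCOR15 is highest in phyB-null.

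FT-like genes, whose best known member encodes the mobile flowering signal florigen, had 4 of 15 members higher in phyB-null and none lower. FT-A1 and FT-B1 had no counts in phyB-null and 2 counts each over all 4 phyC-null libraries, against 1.36 to 7.02 and 2.60 to 9.98 TPM in WT, so no difference between the mutants could be seen at this depth. FT-A4 had 0 counts in phyB-null and 33 in phyC-null, with adjusted P = 0.039. FT-A12 (TraesCS6A01G214400) was at 8.95, 12.2, 11.1 and 11.02 TPM in phyB-null against 1.51, 1.09, 0.273 and 1.18 TPM in phyC-null (log2 fold change 3.54 ± 0.33, adjusted P = 1.3e-04). FT-B12 (TraesCS6B01G244400) was at 4.36, 3.80, 4.23 and 7.68 against 0.319, 0.570, 0.102 and 0.507 TPM (log2 fold change 3.82 ± 0.38, adjusted P = 2.1e-04). WT held 0.161 ± 0.101 and 0.0873 ± 0.0825 TPM of these copies, the lowest of the 3 groups. FT-A9 (TraesCS2A01G347000) was at 8.04, 8.13, 6.77 and 9.15 against 2.24, 2.52, 3.34 and 3.21 TPM (log2 fold change 1.48 ± 0.26, adjusted P = 0.0055), and this call was lost in 7 of the 8 leave-out fits (adjusted P up to 0.021). An FT-like gene on chromosome 5 that is only a low confidence model (TraesCS5A01G723700LC) was at 12.5, 6.31, 8.47 and 15.9 against 1.38, 0.287, 0.0686 and 0.893 TPM (log2 fold change 4.14 ± 0.53, adjusted P = 9.5e-04), with WT at 2.03 ± 0.506 TPM. Among the members that did not pass, one on chromosome 3B (TraesCS3B01G015800) was at 19.1 to 31.2 TPM in phyB-null and 1.70 to 14.3 TPM in phyC-null (adjusted P = 0.044), and FT-B10 overlapped at 2.65 to 10.04 and 5.71 to 8.67 TPM.

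VRN1 and FUL, MADS-box genes that promote flowering, had no member past the threshold, 0 of 6. VRN-A1 was at 36.4, 30.7, 31.9 and 35.3 TPM in phyB-null against 43.0, 46.9, 34.6 and 31.4 TPM in phyC-null (log2 fold change -0.20 ± 0.16, adjusted P = 0.48), with WT at 97.7 to 115 TPM, and the other members were at 0.352 TPM or below in every mutant library. SOC1, a MADS-box integrator of flowering signals, had 3. SOC1-A2 (TraesCS6A01G011700) was at 13.1, 12.6, 13.0 and 13.3 against 6.44, 6.28, 4.01 and 6.73 TPM (log2 fold change 1.20 ± 0.11, adjusted P = 1.4e-04). SOC1-B2 (TraesCS6B01G017900) was at 17.4, 18.5, 19.1 and 22.3 against 12.1, 11.6, 7.26 and 13.2 TPM (log2 fold change 0.87 ± 0.13, adjusted P = 0.0028), with WT lowest at 2.29 ± 0.683 and 4.20 ± 0.750 TPM. SOC1-B1 (TraesCS1B01G214500) had 4.77, 5.41, 15.4 and 3.70 TPM in phyB-null, where replicate 3 was far above the others, and 0.585, 0.305, 0.847 and 0.610 TPM in phyC-null (log2 fold change 3.60 ± 0.55, adjusted P = 0.0026; 2.93 without phyB-null replicate 3). These were the 3 of 13 SOC1 and SVP genes that passed.

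Genes of the FLC clade, MADS-box regulators of flowering that respond to cold in grasses, were lower in phyB-null where they differed, 2 of 12. FLC-A1 (TraesCS7A01G260900) was at 0.578, 0.283, 0.240 and 0.155 TPM in phyB-null against 9.19, 13.8, 10.2 and 11.3 TPM in phyC-null (log2 fold change -5.16 ± 0.34, adjusted P = 1.3e-05). FLC-B1 (TraesCS7B01G158900) was at 1.32, 0.497, 0.870 and 1.18 against 3.85, 3.36, 2.11 and 3.54 TPM (log2 fold change -1.71 ± 0.26, adjusted P = 0.0025). WT was heterogeneous, with 13.8, 3.67, 2.92 and 2.17 TPM of FLC-A1 and 28.7, 6.11, 4.84 and 7.43 TPM of FLC-B1 in replicates 1 to 4. WT replicate 1 was thus the library highest in both FLC1 copies and without reads of TB1. Among MADS-box genes of the AGL12 and AGL17 groups 3 of 7 fell and 1 rose: AGL12-A1, AGL12-B1 and AGL12-B2 had log2 fold changes of -2.13, -2.21 and -2.11, and AGL17-A1 of 0.86. STK-A2 (TraesCS1A01G262700), a floral organ MADS-box gene, was the 1 of 16 of its list that passed, at 0.739, 1.44, 1.07 and 1.23 against 0.140, 0.0912, 0.183 and 0.243 TPM (log2 fold change 2.77 ± 0.39, adjusted P = 0.0018). The summed level of the 16 was low in leaves of all groups, 16.3 to 22.2 TPM in phyB-null against 10.7 to 11.7 TPM in phyC-null. Leaving out single libraries ended the calls of SOC1-B1, SOC1-B2, FLC-B1, AGL12-B2 and AGL17-A1 (adjusted P up to 0.012, 0.014, 0.014, 0.017 and 0.028). For SOC1-B1 these were phyC-null replicates 1 and 4, for SOC1-B2 phyB-null replicates 3 and 4 and phyC-null replicate 2, and for FLC-B1 phyB-null replicate 3. AGL12-B2 and AGL17-A1 lost the call in 6 of the 8 fits each.

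Of 8 listed genes tied to elongation growth 3 were higher in phyB-null, none was lower and 5 did not pass, with a list median of 1.64 on the log2 scale. FPF-like-B1 (TraesCS2B01G133600), related to the FLOWERING PROMOTING FACTOR genes, was at 28.7, 22, 18.6 and 35.9 TPM in phyB-null against 2.10, 0.974, 0.0583 and 0.506 TPM in phyC-null (log2 fold change 4.97 ± 0.52, adjusted P = 2.7e-04). FPF-like-2 (TraesCS2B01G288300) was at 127, 72.7, 109 and 231 against 40.3, 41.0, 21.3 and 52.6 TPM (log2 fold change 1.84 ± 0.28, adjusted P = 0.0027), with WT at 59.2 to 77.9 TPM, above phyC-null and overlapping phyB-null; without phyC-null replicate 2 its adjusted P was 0.010. LONGIFOLIA genes promote lengthwise growth of leaf cells in Arabidopsis. A gene with that annotation on 7B, not a list member but one of the largest differences over all genes (TraesCS7B01G355800) had 59, 120, 99 and 112 counts in phyB-null and 0, 0, 0 and 1 in phyC-null, a ratio of 462 (95% exact counting interval 82.5 to 18308) (adjusted P = 1.7e-05), and LONGIFOLIA-2-like on 7A (TraesCS7A01G455400) was at 0.124, 0.122, 0.143 and 0.234 against 0.0056, 0, 0.0125 and 0.0052 TPM (log2 fold change 4.48 ± 0.60, adjusted P = 0.0012). A pair of genes on 6A and 6B annotated as ILI5, small helix-loop-helix proteins whose rice relatives promote lamina bending, was likewise outside the list and among the largest differences. The 6A gene (TraesCS6A01G306200) was at 11.2, 15.0, 14.4 and 19.7 TPM in phyB-null against 0, 0, 0 and 0.332 TPM in phyC-null (log2 fold change 7.38 ± 0.61, adjusted P = 6.3e-05). The 6B gene (TraesCS6B01G334600) was at 14.0, 16.1, 15.9 and 19.2 against 0, 0.187, 0.0671 and 0.499 TPM (log2 fold change 6.42 ± 0.48, adjusted P = 3.5e-05). Both were at most 0.215 TPM in WT. The estimates for these scarce transcripts moved with single libraries: without phyC-null replicate 4 they were 10.39 for the 6A and 7.42 for the 6B ILI5 gene and 9.70 for the 7B LONGIFOLIA gene, without phyC-null replicate 3 that of LONGIFOLIA-2-like was 5.32, and without phyC-null replicate 1 that of FPF-like-B1 was 5.74.

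Auxin and brassinosteroid genes that passed were also all higher in phyB-null, 3 of 12 and 2 of 4. TAR-A2 (TraesCS3A01G093000) and TAR-B2 (TraesCS3B01G108200) encode tryptophan aminotransferases, which make an auxin precursor. TAR-A2 was at 11.2, 14.0, 16.6 and 18.4 TPM in phyB-null against 5.78, 4.17, 4.19 and 5.98 TPM in phyC-null (log2 fold change 1.62 ± 0.19, adjusted P = 5.1e-04). TAR-B2 was at 12.3, 9.83, 11.9 and 16.9 against 4.71, 4.67, 4.65 and 5.08 TPM (log2 fold change 1.41 ± 0.17, adjusted P = 7.9e-04). WT was at 4.46 to 6.61 and 5.37 to 6.02 TPM, overlapping phyC-null for TAR-A2 and above it for TAR-B2. A SAUR36-like gene of the auxin-induced SAUR family (TraesCS5B01G344700) was at 1.08, 0.949, 1.10 and 1.35 against 0, 0, 0.118 and 0.0734 TPM (log2 fold change 4.25 ± 0.67, adjusted P = 0.0032). BZR1-like-A (TraesCS3A01G139000), a transcription factor of the brassinosteroid response, was at 20.9, 21.3, 21.2 and 23.5 against 8.47, 8.04, 4.75 and 15.5 TPM (log2 fold change 1.33 ± 0.22, adjusted P = 0.0046). Its bHLH partner BIM-A2 (TraesCS5A01G251400) was at 7.45, 6.89, 6.48 and 10.02 against 1.73, 1.82, 1.496 and 3.89 TPM (log2 fold change 1.84 ± 0.25, adjusted P = 0.0014). In both, phyC-null replicate 4 was the highest of its group. Calls were lost on leaving out single libraries for SAUR36-like (3 of 8 fits) and BZR1-like-A (5 of 8), with adjusted P up to 0.014 and 0.019, and without phyC-null replicate 3 the estimate of SAUR36-like was 5.34.

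The 3 PYL4-like abscisic acid receptors listed were all lower in phyB-null. PYL4-like-B1 (TraesCS4B01G189800) was at 4.95, 2.31, 2.47 and 4.38 TPM in phyB-null against 30.7, 25.5, 45.2 and 23.3 TPM in phyC-null (log2 fold change -3.24 ± 0.37, adjusted P = 4.4e-04). PYL4-like-A1 (TraesCS4A01G114400) was at 2.41, 0.781, 0.864 and 1.15 against 9.44, 8.73, 16.8 and 6.05 TPM (log2 fold change -3.12 ± 0.48, adjusted P = 0.0029). PYL4-like2 on 2B (TraesCS2B01G105300) was at 6.79, 6.03, 5.72 and 6.58 against 37.9, 25.2, 30.3 and 31.0 TPM (log2 fold change -2.30 ± 0.17, adjusted P = 3.6e-05). In WT they were at 27.6 ± 4.87, 8.84 ± 2.28 and 26.9 ± 2.97 TPM, and WT overlapped phyC-null and lay above every phyB-null library. PYL4-like-A1 lost its call without phyB-null replicate 3 or 4 (adjusted P = 0.016 and 0.014), and its estimate was -2.50 without phyC-null replicate 3.

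A run of neighbouring genes on 1B stood out among the transcription factors. The 5 genes TraesCS1B01G449000, TraesCS1B01G449100, TraesCS1B01G449200, TraesCS1B01G449300 and TraesCS1B01G449400, numbered in a row in the assembly and annotated as RADIALIS-like MYB-related factors, were all lower in phyB-null, with log2 fold changes of -3.74, -2.11, -4.09, -2.79 and -3.87. The most abundant, TraesCS1B01G449100, was at 24.0, 10.9, 14.2 and 19.4 TPM in phyB-null against 104, 81.5, 53.7 and 61.4 TPM in phyC-null (log2 fold change -2.11 ± 0.21, adjusted P = 1.9e-04), with WT at 119 ± 26.9 TPM. A like gene on 1A (TraesCS1A01G419000) was at 6.22, 2.65, 3.76 and 12.2 against 61.0, 44.2, 33.4 and 34.9 TPM (log2 fold change -2.80 ± 0.37, adjusted P = 0.0012). Its neighbour TraesCS1A01G419100, described in the same way but without a family in the transcription factor table, was also lower (log2 fold change -2.98, adjusted P = 2.4e-04). RADIALIS is known for its part in the asymmetry of snapdragon flowers. These genes were picked after their values were seen. Without TraesCS1A01G419100 they are 6 of the 16 genes with this annotation in the transcription factor table, of which 10 did not pass. None of the 4 RADIALIS-like genes on chromosomes 6 and 7 that had been listed passed, 3 of them among those 10 and the 7B gene outside that table, and their mutant levels were below WT in every library. Neighbouring copies can share reads that map to more than 1 place, and such reads were not counted.

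One cold-regulated gene was higher in phyB-null, whereas the CBF genes that passed, AP2-type activators of cold-regulated genes, were lower. WCOR15 (TraesCS2A01G427200), a cold-regulated chloroplast protein, was at 1073, 1194, 1200.4 and 1453 TPM in phyB-null, 421, 253, 435 and 331 TPM for phyC-null and 28.4 to 53.8 TPM in WT (log2 fold change 1.75 ± 0.27, adjusted P = 0.0029), and was the 1 of 6 cold-regulated genes that passed. The other 5 had positive estimates of 0.20 to 1.71 that did not pass, with overlapping libraries. Of the 4 listed CBF genes, CBF 5A-2 (TraesCS5A01G310800) was the 1 that passed and it was lower in phyB-null, at 4.95, 4.46, 6.31 and 5.58 against 18.9, 13.8, 8.13 and 13.9 TPM (log2 fold change -1.29 ± 0.17, adjusted P = 0.0013). CBF 5A-1 had 5.74 to 11.1 and 2.42 to 7.79 TPM, with adjusted P = 0.062. WT was at or below 3.45 TPM of CBF 5A-2. Outside the list, 8 more genes carried the same description, CRT-binding factor, and were taken up after their values were seen. Of these 5 were lower in phyB-null and none higher, which makes 6 of 12 with the listed genes. The most abundant of the 5, TraesCS5A01G310500, was at 2.70, 0.840, 1.43 and 2.20 TPM in phyB-null against 16.4, 13.1, 7.78 and 9.53 TPM in phyC-null (log2 fold change -2.69 ± 0.28, adjusted P = 2.5e-04), with WT between them at 4.55 to 7.49 TPM. The largest difference was that of TraesCS5A01G310000, at 0.876, 0.401, 1.06 and 0.740 against 3.66, 7.75, 5.01 and 9.99 TPM (log2 fold change -3.08 ± 0.35, adjusted P = 4.7e-04), and here WT, at 0.369 to 0.731 TPM, overlapped phyB-null. No library of one mutant overlapped the other mutant in either gene. The 5 genes lie on 5A and 5B, some with neighbouring identifiers, and reads shared between copies were not counted. The log2 fold changes of TraesCS5A01G310200, TraesCS5B01G311300 and TraesCS5B01G310800 were -2.997, -2.12 and -1.68 (adjusted P = 0.0010, 0.0023 and 0.0030). The WCOR15 call was lost without phyB-null replicate 3 or 4 or phyC-null replicate 1 or 4 (adjusted P up to 0.013), and that of CBF 5A-2 held in all of these fits. Of the other CBF calls, TraesCS5B01G311300 lost its own without phyB-null replicate 3 (adjusted P = 0.013) and TraesCS5B01G310800 without phyB-null replicate 2 or 3 (adjusted P up to 0.0102).

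CONSTANS-like and B-box zinc finger genes, which include regulators of photoperiodic flowering, had 2 of 33 members higher and 1 lower in phyB-null. That is 9.09% of the list, against 4.10% of all high confidence genes. A CONSTANS-like gene on 6A (TraesCS6A01G150900) was at 23.8, 24.9, 26.9 and 29.6 TPM in phyB-null against 13.9, 10.4, 10.4 and 13.9 TPM in phyC-null (log2 fold change 1.15 ± 0.15, adjusted P = 9.1e-04). The B-box genes that passed were TraesCS6A01G143900, at 5.74, 5.74, 6.33 and 6.60 against 2.77, 1.81, 2.76 and 1.75 TPM (log2 fold change 1.40 ± 0.27, adjusted P = 0.0094), and TraesCS2A01G366100, at 9.39, 5.18, 6.34 and 10.8 against 20.8, 23.0, 20.0 and 18.9 TPM (log2 fold change -1.41 ± 0.21, adjusted P = 0.0022). The former lost its call in 7 of the 8 leave-out fits (adjusted P up to 0.036) and the latter without phyB-null replicate 3 (adjusted P = 0.013).

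The largest differences over all genes are given next, by size among called genes that averaged 1 CPM or more and whose libraries did not overlap. Descriptions existed for 786 of the 1700 such genes, all from the study's own tables. On the phyB-null side, an F-box gene on 2B (TraesCS2B01G354500) was at 26.6, 21.9, 25.3 and 33.4 TPM in phyB-null against 0.0165, 0.0345, 0.0618 and 0.138 TPM in phyC-null (log2 fold change 8.67 ± 0.34, adjusted P = 4.5e-07), with WT at 0.0560 ± 0.0359 TPM. A gene on 2B annotated as ribityllumazine synthase, an enzyme of riboflavin synthesis (TraesCS2B01G551700), had 96, 100, 144 and 177 counts in phyB-null, 0, 0, 1 and 0 in phyC-null and none in WT, a ratio of 613 (95% exact counting interval 109.5 to 24254). Genes for an S-type anion channel of the SLAH2 type (TraesCS1B01G456200), a lipid transfer protein (TraesCS7B01G312800), an AP2/B3 factor of the RAV family (TraesCS1B01G392000) and a DUF599 protein of unknown function (TraesCS5A01G273300) were at 1.16 to 2.30, 7.13 to 29.6, 1.65 to 3.20 and 1.77 to 5.39 TPM in phyB-null and at 0 to 0.0131, 0 to 0.233, 0 to 0.0385 and 0 to 0.0668 TPM in phyC-null. Adjusted P was at most 2.4e-04 for these 4. Leaving out single libraries moved the log2 fold change of the ribityllumazine synthase gene to 10.13 (without phyC-null replicate 3) and that of the DUF599 gene to 7.97 (without phyC-null replicate 1).

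On the other side, transcripts lost in phyB-null but kept in phyC-null included a pair of SWEET3a-like sugar transporters, which let sugars cross membranes along their gradient. The 1A gene (TraesCS1A01G129600) was at 0.0803, 0, 0.10 and 0 TPM in phyB-null, 5.11, 6.13, 5.27 and 4.05 TPM for phyC-null and 11.4 ± 3.39 TPM in WT (log2 fold change -6.77 ± 0.55, adjusted P = 5.4e-05). The 1B gene (TraesCS1B01G147200) had 1, 1, 0 and 0 counts in phyB-null and 133, 152, 158 and 115 in phyC-null, a ratio of 235 (95% exact counting interval 64.8 to 1948) lower in phyB-null (adjusted P = 1.3e-05). For both, phyC-null was also below WT. A nuclear pore protein gene on 7A (TraesCS7A01G158600) took the same order, at 0.0273, 0.0229, 0.0227 and 0.0441, 8.06, 7.61, 1.81 and 4.32 and 27.4, 19.7, 26.2 and 11.5 TPM in phyB-null, phyC-null and WT (log2 fold change -7.30 ± 0.50, adjusted P = 2.0e-05). A lipid-binding glycoprotein gene (TraesCS7B01G190500) and an organic cation transporter gene (TraesCS2B01G232400) were at 0 to 0.1002 and 0.0137 to 0.0702 TPM in phyB-null, against 4.62 to 6.67 and 1.53 to 3.42 TPM in phyC-null and 6.31 to 8.19 and 2.05 to 5.49 TPM in WT. Without phyB-null replicate 3 the log2 fold change was -7.57 for the 1A SWEET3a gene and -8.17 for the glycoprotein gene.

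In a smaller set phyC-null, not phyB-null, was far from WT. A thaumatin-like gene on 5A (TraesCS5A01G018000), of a family of defence-related proteins, was at 76.8, 90.3, 92.6 and 79.1 TPM in phyB-null, 0.134, 0.210, 0.101 and 0.218 TPM for phyC-null and 43.4, 47.6, 59.2 and 66.8 TPM in WT (log2 fold change 9.03 ± 0.24, adjusted P = 1.5e-08). A gene of unknown function on 7B (TraesCS7B01G218500) was likewise low in phyC-null, at 0.0603, 0.0449, 0.0193 and 0.0639 TPM against 19.0, 12.7, 17.0 and 19.3 TPM in phyB-null and 8.20 to 18.5 TPM in WT (log2 fold change 8.53 ± 0.21, adjusted P = 1.5e-08). Another on 7B (TraesCS7B01G177000) had 108, 136, 112 and 132 counts in phyB-null and none in phyC-null, at least 193-fold higher in phyB-null (adjusted P = 2.9e-05), with 111, 58, 57 and 123 counts in WT. An acyltransferase-like gene on 2A (TraesCS2A01G002700) was at 0.978 to 4.10, 0 to 0.0348 and 0.902 to 1.95 TPM in phyB-null, phyC-null and WT, with counts 279 (95% exact counting interval 76.7 to 2307) times as high in phyB-null as in phyC-null. All phyC-null reads of this gene were in replicate 1, and its fitted log2 fold change was 7.74, or 9.93 without that library.

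In the opposite direction, ribonuclease and apyrase transcripts were higher in phyC-null than in either other group. The ribonuclease gene on 1A (TraesCS1A01G152600) had 0, 0, 0 and 0 counts in phyB-null, 437, 1273, 855 and 1375 in phyC-null and 1, 0, 2 and 3 in WT, at least 1108-fold lower in phyB-null (adjusted P = 1.0e-04). The ribonuclease gene on 1B (TraesCS1B01G170100) had 1, 1, 0 and 1, 1550, 4317, 2902 and 4832 and 44, 78, 34 and 68, and was lower in phyB-null by a ratio of 3824 (95% exact counting interval 1308 to 18547) (adjusted P = 1.7e-06). Here WT lay between the mutants, apart from both. Apyrases hydrolyse nucleoside tri- and diphosphates. The 7A gene (TraesCS7A01G160900) was at 0.435, 1.61, 1.25 and 0.439 TPM in phyB-null, 156, 153, 29.0 and 105 TPM for phyC-null and 9.07, 27.0, 6.62 and 1.61 TPM in WT (log2 fold change -6.71 ± 0.61, adjusted P = 1.1e-04). The 7B gene (TraesCS7B01G065900) was at 0.0872, 0.165, 0.236 and 0.299, 15.7, 13.2, 2.67 and 7.81 and 0.933, 1.62, 0.717 and 0.222 TPM (log2 fold change -5.48 ± 0.49, adjusted P = 1.1e-04). In both pairs the genes on the A and B genomes gave the same order of the 3 groups. An unplaced gene of unknown function (TraesCSU01G077800) behaved like the 1A ribonuclease, with 0, 0, 0 and 0 counts in phyB-null, 168, 191, 549 and 286 in phyC-null and 1, 0, 2 and 1 in WT, at least 336-fold lower in phyB-null. An RS2Z32-like splicing factor gene on 1B (TraesCS1B01G130200) was at 0.0492, 0, 0.0327 and 0.0397, 1.95, 2.33, 1.30 and 1.65 and 0.277, 0.237, 0.0746 and 0.242 TPM in phyB-null, phyC-null and WT (log2 fold change -5.85 ± 0.42, adjusted P = 2.5e-05). A WD40 repeat gene on 4B (TraesCS4B01G211500) varied widely within phyC-null, at 2.74, 0.977, 0.0804 and 0.592 TPM against 0.0148, 0, 0 and 0.0180 TPM in phyB-null (log2 fold change -6.81 ± 1.08, adjusted P = 0.0033), and its call was lost without any of the 4 phyB-null libraries (adjusted P up to 0.017), with an estimate of -5.89 without phyC-null replicate 1.

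Among all called genes, 17 had no count in any phyB-null library and 15 none in any phyC-null library. In WT, 5 of the 17 and 9 of the 15 had reads in all 4 libraries. WT had no reads of 5 of the 15 and of none of the 17. The phyB-null set held, besides TB1, the 1A ribonuclease and TraesCSU01G077800, a cell wall invertase (TraesCS4A01G321700), with 8 to 24 counts in phyC-null, and a high-affinity nitrate transporter (TraesCS7B01G328700), with 11 to 21, which were named after their values were seen. By whole chromosome, calls ranged from 3.11% of the genes tested on 6A to 4.98% on 2B. Such shares cannot show a local stretch. Among the 15 genes without a phyC-null count, TraesCS5B01G038600, TraesCS5B01G038700, TraesCS5B01G039300 and TraesCS5B01G044800 have nearby identifiers on 5B. Each had reads in every phyB-null and WT library. Whether they mark a segment particular to the phyC-null line was not tested.

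Genes in the transcription factor table were called more often than genes at large, 157 of 1828 (8.59%), of which 49 were higher and 108 lower in phyB-null. That table also holds genes without a family that are not transcription factors. Gibberellin oxidases, FT-like genes, abscisic acid receptors and WCOR15 are among those called. The share and the split are therefore not those of transcription factors alone. Of the 1828, 1086 reached a mean of 1 CPM, against 30655 of 48846 genes, and 5.55% of the latter were called (2.32% higher and 3.23% lower). By family the split was uneven. Among families with at least 20 members tested, TCP factors had the highest share, 6 of 29 (20.7%), all lower in phyB-null; besides TB1 they were TraesCS6A01G412800, TraesCS6B01G462100, TraesCS3B01G333400 and TraesCS3B01G470700, with log2 fold changes of -1.53, -1.24, -1.13 and -0.94. TraesCS3B01G470700, the most abundant, was at 30.3, 39.7, 44.8 and 43.0 TPM in phyB-null against 92.8, 69.1, 53.7 and 101 TPM in phyC-null, and its call was lost without any library other than phyC-null replicate 3 (adjusted P up to 0.029), as was that of TraesCS3B01G333400 (up to 0.026), while that of TraesCS6B01G462100 was lost in 5 of the 8 fits (up to 0.017). GRAS (6 of 55), HD-ZIP (5 of 47) and MYB-related (8 of 78) members were also lower in phyB-null wherever they passed. The HD-ZIP members counted do not include ATHB2-B, the homeodomain-leucine zipper gene above that was higher in phyB-null. Among the 8 MYB-related genes, 6 were RADIALIS-like genes described above. ERF and NAC factors had 10 lower and 1 higher each, of 105 and 147, and 6 of the 10 lower ERF genes were the CBF genes above. bHLH factors, which include the PIFs, were divided with 11 higher and 13 lower of 207, and so were MADS-box factors with 5 and 5 of 63. The bHLH family was held only in part, so its share need not be that of the whole family. No C3H (of 50) or FAR1 (of 25) member passed, and 3 of 119 WRKY members did, all lower.

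**Figure D5:**
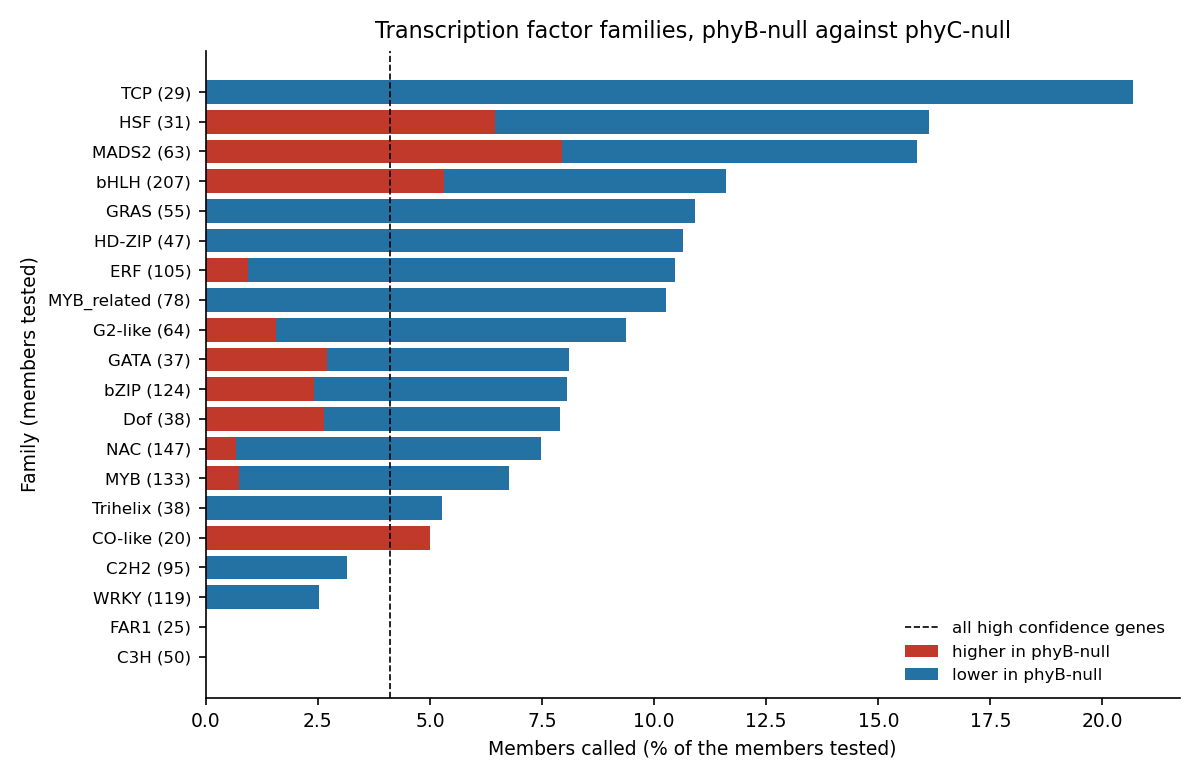
Share of the tested members of each transcription factor family with at least 20 members called higher (red) or lower (blue) in phyB-null, with the number tested in brackets and the share over all high confidence genes (4.10%) as a dashed line. TCP, GRAS, HD-ZIP and MYB-related bars are blue throughout, and bHLH and MADS-box (MADS2) bars hold both colours. ATHB2-B is not among the HD-ZIP members counted, and the bHLH family was held only in part.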

How the data were processed

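Leaf RNA gave 4 libraries per genotype. The study's methods describe them as biological replicates from individual plants. Libraries were unstranded TruSeq v2, read as 100 bp single reads on 2 lanes with 2 replicates of each genotype per lane. The lane of each library is not given, so no within-lane value could be had, and reads of overlapping antisense genes cannot be told apart. The authors aligned reads with GSNAP to the IWGSC RefSeq v1.0 assembly, counted uniquely mapped reads per gene with HTSeq, and deposited raw counts after dropping genes without a count of at least 3 in any library. The authors also deposited TPM values, used here for levels only; versions are not given in the sources used here.

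The deposited counts of the 8 mutant libraries were fitted with edgeR 4.0.16 (R 4.3.3; TMM factors, quasi-likelihood test, no covariates) over 72120 features, with a gene called at an adjusted P below 0.01 (Benjamini-Hochberg). An error beside a log2 fold change is its standard error. The procedure was tested on simulated data of 72120 genes for this comparison. It recovered 88% of 100 genes changed 4-fold and 12% of 100 genes changed 2-fold, so most 2-fold differences were missed in that setting. Far fewer genes were changed there than were called in the data. These rates therefore hold for the simulated setting and need not hold for the data. Alternatives used DESeq2 1.42.0, limma 3.58.1 on log2(TPM + 1) and log2(TPM + 0.1), other factors, filters and thresholds, all 12 libraries, a replicate block, and each library left out in turn. Named genes were every called member of 20 lists (194 genes), the 12 largest described and the 5 largest called differences in each direction that averaged 1 CPM or more and did not overlap, plus the RADIALIS-like, TCP and CRT-binding factor members, taken up after their values were seen. The members and lists were chosen with earlier results of these data known. Gene names and descriptions come from the study's tables, whose bHLH family was held only in part. Low confidence models entered the fit but not the counts over all genes, and 1 is a member of the FT-like list.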

Additional observations from a re-analysis of the deposited data

Results flagged for a closer look

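In 249 groups of 4 libraries, 28 held a library whose gap to its nearest neighbour exceeded Dixon's 95% critical value. Chance gives about 1 in 20 such groups, and genes of 1 library are not independent. That rate does not hold where the other libraries are all at 0, because any read then exceeds the critical value. Entries given below with the others at 0 are therefore no evidence that a library is unusual. WT replicate 1 stood apart with 0 TPM of FT-A9 (others 0.241 to 0.286), 0 TPM of TB1 (5A) (others 4.45 to 5.21), 0 TPM of TraesCS6A01G306200 (others 0.0939 to 0.108), 1.22 TPM of LHY (others 0.580 to 0.595), 0 TPM of TraesCS6B01G334600 (others 0.188 to 0.215), 13.8 TPM of FLC-A1 (others 2.17 to 3.67) and 28.7 TPM of FLC-B1 (others 4.84 to 7.43). WT replicate 2 stood apart with 15.8 TPM of TraesCS1B01G147200 (others 6.84 to 8.08). WT replicate 4 stood apart with 16.1 TPM of TraesCS1B01G449000 (others 34.4 to 36.7), 0.0133 TPM of TraesCS1B01G456200 (others 0), 0.0461 TPM of GA2ox6 (others 0), 0.0173 TPM of GA2ox6 (2B) (others 0) and 0.417 TPM of GA20ox-B2 (others 0.203 to 0.227). phyB-null replicate 1 stood apart with 26.6 TPM of GIGANTEA-A (others 29.0 to 29.1), 17.9 TPM of GIGANTEA-B (others 19.4 to 19.7) and 2.34 TPM of GA2ox-B11 (others 1.06 to 1.16). phyB-null replicate 3 stood apart with 15.4 TPM of SOC1-B1 (others 3.70 to 5.41). phyB-null replicate 4 stood apart with 23.5 TPM of BZR1-like-A (others 20.9 to 21.3) and 7.68 TPM of FT-B12 (others 3.80 to 4.36). phyC-null replicate 1 stood apart with 0.0348 TPM of TraesCS2A01G002700 (others 0). phyC-null replicate 3 stood apart with 0.0526 TPM of TraesCS2B01G551700 (others 0) and 4.01 TPM of SOC1-A2 (others 6.28 to 6.73). phyC-null replicate 4 stood apart with 5.08 TPM of TAR-B2 (others 4.65 to 4.71), 2.11 TPM of GA20ox-B2 (others 0.392 to 0.450), 0.0401 TPM of GA2ox-B11 (others 0), 3.89 TPM of BIM-A2 (others 1.496 to 1.82), 0.332 TPM of TraesCS6A01G306200 (others 0) and 0.0033 TPM of TraesCS7B01G355800 (others 0). Outside the high confidence genes, 458 of 23274 low confidence models and other features were called between the mutants (1.97%), 210 higher and 248 lower in phyB-null by edgeR's quasi-likelihood test.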

How the results depend on the processing

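The number of called genes depended on the tool and the libraries more than its direction did: genes lower in phyB-null were in the majority under every setting tried, with 32.1% to 47.8% of calls higher against 39.8% as reported. DESeq2 called 4938 genes (2153 higher, 2785 lower), DESeq2 together with edgeR's exact test 3809 (1486 and 2323), and the fit with all 12 libraries 3316 (1301 and 2015). An adjusted P below 0.05 gave 5056 (2140 and 2916), and a minimum of 2-fold 1497 (497 and 1000). limma called 817 (345 and 472) on log2(TPM + 1) and 894 (364 and 530) on log2(TPM + 0.1). Library size alone gave 1505 calls. Leaving out each library in turn gave 818 to 2901 calls, 312 to 1387 higher and 506 to 1514 lower. Without phyB-null replicate 2 and phyC-null replicate 3, an alternative chosen after seeing the data, there were 2522. The cause was not tested. All 86 named genes kept their direction in every alternative that gave them a value, and 55 kept their call in all of them. They had been chosen among the genes called in the main fit, and the alternatives used the same libraries, so a kept direction says little.

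Same-numbered libraries of the mutants had deviations correlated at 0.56, -0.52, 0.27 and -0.04, and differently numbered ones at -0.62 to 0.56. Such correlations cannot show whether a shared number stands for a lane or a harvest, so pairing by number was not tested. With the replicate block there were 1489 calls (582 higher, 907 lower), and 9 named genes lost theirs.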
